A study of Mus musculus with 12 samples.

Results

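The 36 genes described here encode aminoacyl-tRNA synthetases, the enzymes that join each amino acid to its transfer RNA before it is used by the ribosome. They were taken by symbol from a list of 36 synthetase genes, and each symbol was present in every library, among 24411 symbols in all. Genes whose symbol ends in 2 encode the mitochondrial enzymes (16 genes), and the other 20 encode the cytosolic enzymes. All 36 had at least 1 TPM (a level scaled for transcript length and for the total of each library) in at least 2 libraries and were tested with 16133 genes in all. The list was fixed by gene symbol, but it was chosen with earlier results of these data known.

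Animal cells charge transfer RNA in the cytosol and, separately, in mitochondria, where ribosomes translate the few proteins encoded by mitochondrial DNA. The synthetases of both compartments are encoded in the nucleus, and the mitochondrial ones are imported after synthesis. Gars and Kars, the glycyl and lysyl enzymes, serve both compartments from 1 gene and are counted as cytosolic by the symbol rule. Several cytosolic synthetases assemble into the multisynthetase complex, which is held together by the scaffold proteins Aimp1, Aimp2 and Eef1e1. By fold, the enzymes fall into class I and class II. ATF4, a transcription factor whose translation rises when the initiation factor eIF2 is phosphorylated under amino acid shortage or other stress, is known to act on several cytosolic synthetase genes.

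The RNA came from NR5A1(+) cells of fetal mouse gonads. NR5A1 is a nuclear receptor of gonadal somatic cells, and every group had the genotype Nr5a1-hCD271. Per the labels, gonads were dissected at E10.8 together with aorta, mesonephros and mesenchyme and spent 19.2 h on filters, in DMEM to which 10% horse serum was added. Cultured gonads gave control XY libraries (n = 3), XY libraries with deferoxamine, an iron chelator labelled Dfo, at 150 µM (n = 3), and control XX libraries (n = 2). A further 2 libraries of each sex came from E11.5, with WT in their titles, which the titles of the cultured libraries lack. The E11.5 labels carry the culture protocol as well, which leaves unclear how E11.5 gonads were collected. No label says that replicates are separate embryos or litters, so the p-values measure only the spread between these samples, which may be technical.

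Some libraries stood apart. Replicates 1 and 2 lay closer to each other than to replicate 3: over the 36 synthetase genes, their median absolute log2 difference was 0.11 in control XY and 0.10 in Dfo XY, against 0.21 to 0.23 for pairs with replicate 3. Dfo XY replicates 1 and 2 held the X-inactivation transcript Xist at 13.6 and 24.6 TPM, against at most 0.90 TPM in the other XY libraries and 124 to 175 TPM in XX. The RNase P RNA Rpph1 took 15.3% to 20.3% of all TPM in control XY, 19.5% to 23.6% in Dfo XY, 6.96% and 7.20% in control XX and 8.57% to 12.2% at E11.5, so other genes shared a smaller total in the cultured XY libraries. The Dfo result is therefore also given with replicates 1 and 2 averaged, with the Xist-holding Dfo libraries left out, and with another scaling. Because TPM does not keep sequencing depth, the depth is unknown.

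The stretch of sequence shown first is the ATF4-type element in the promoters of cytosolic synthetase genes, because ATF4 is known to act through elements of this kind. RefSeq promoter windows (250 bases before to 50 bases after the annotated start, build GRCm38.p6, whose coordinates are those of mm10) were found for 27 of the 36 genes, 1 of them, Mars, under its newer symbol Mars1. No window was matched for Cars, Hars, Lars, Nars, Rars, Vars, Wars, Hars2 and Pars2. The motif searched was TGATGNAA, the core of the C/EBP-ATF response element, on both strands. Each line gives, for 1 match per gene, 30 bases, 5′ to 3′ on the strand of the gene, with the match in capitals.
Aars: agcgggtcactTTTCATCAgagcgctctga
Gars: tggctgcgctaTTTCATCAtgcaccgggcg
Iars: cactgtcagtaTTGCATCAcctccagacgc
Tars: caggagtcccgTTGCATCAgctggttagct
Yars: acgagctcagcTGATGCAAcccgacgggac

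The printed stretches lie at chr8:111033840-111033869 for Aars (+ strand), chr6:55037960-55037989 for Gars (+), chr13:49682126-49682155 for Iars (+), chr15:11399655-11399684 for Tars (-) and chr4:129189895-129189924 for Yars (+). Counted from the RefSeq start, the match shown began at 10 in Aars, at -30 in Gars, at 8 in Iars, at -15 in Tars and at 4 in Yars. The gene positions given below are from GENCODE, whose start can differ from this one. It is 111033144 for Aars and 129189760 for Yars. Of the matches shown, only that of Yars read TGATGNAA on the strand of the gene. Of the genes with a window, 5 of 13 cytosolic and 0 of 14 mitochondrial ones held a match. A window can lie away from the GENCODE start: that of Tars2 (- strand) spans 95754928 to 95755227, and its GENCODE start is 95760206. Over all genes, 4.51% of 27025 symbols held it in any window, and so did 3.97% of all 32851 windows of this length. Of the 6 genes with a window that rose with Dfo (below), 4 held it, and of the 7 other cytosolic genes with a window 1 did, Tars. Among 17 amino acid response genes with a window, 5 held it, Asns, Slc7a11, Trib3, Chac1 and Atf3. A match is a description of letters and not a binding site, and a window without a match says nothing of the factor.

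In XY gonads cultured with Dfo, part of the cytosolic synthetase genes rose against control XY. Of the 20 cytosolic genes, 8 rose (Cars, Sars, Iars, Nars, Gars, Aars, Eprs and Yars), 2 fell (Vars and Kars) and 10 did not pass the test. Of the 16 mitochondrial genes, 0 rose, 2 fell (Sars2 and Vars2) and 14 did not pass. Of all genes tested, 4.98% rose and 10.5% fell, so the mitochondrial counts lay near the shares of all genes. The median log2 change was 0.27 over the cytosolic genes, -0.30 over the mitochondrial genes and -0.17 over all genes tested. Calls are from limma on log2(TPM + 1) at a Benjamini-Hochberg adjusted p below 0.05, and changes on this scale understate those of genes with low levels. The plot of changes by gene places the 8 risers at the top of the cytosolic panel, and the 2 called points of the mitochondrial panel are both lower.

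**Figure D1:**
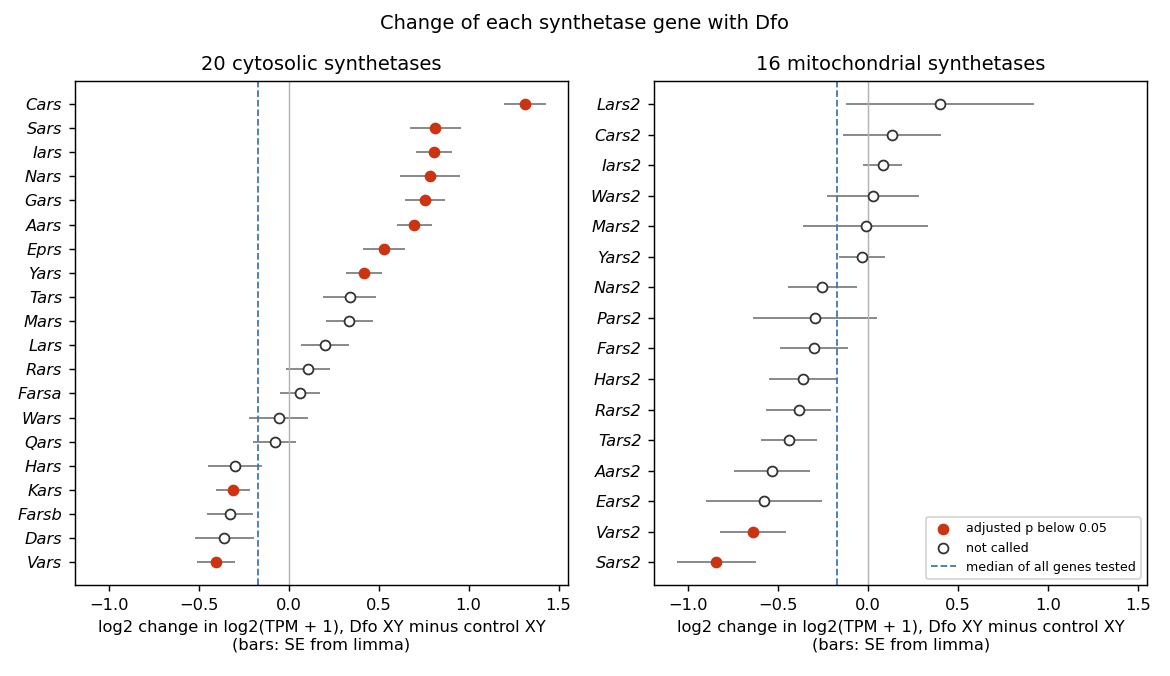
Log2 change of each synthetase gene, Dfo XY minus control XY, on log2(TPM + 1), with the SE from limma as bars; filled points passed an adjusted p of 0.05, open points did not, and the dashed line is the median of all genes tested (-0.17). The 8 filled cytosolic points to the right run from 0.42 (Yars) to 1.31 (Cars), and the filled mitochondrial points are Sars2 and Vars2, both to the left.

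Cars, the cysteinyl enzyme (chromosome 7, 143557230 to 143600090, mm10, - strand), had the largest change of the 36. Its level was 36.2, 35.4 and 40.9 TPM in control XY replicates 1 to 3 and 97.6, 90.8 and 95.1 TPM in Dfo XY. Every Dfo library thus stood at more than the level of any other library in the series, where the highest was 53.0 TPM in control XX. The log2 change was 1.31 ± 0.12 (SE), a 2.48-fold difference, with an adjusted p of 1.17e-05.

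Sars, the seryl enzyme (chromosome 3, 108424865 to 108445209, - strand), stood at 74.0, 64.9 and 87.2 TPM in control XY and at 122, 124 and 152 TPM in Dfo XY. The groups did not overlap, and the log2 change was 0.81 ± 0.14 (adjusted p 0.00222). Iars, the isoleucyl enzyme (chromosome 13, 49682100 to 49734267, + strand), was even among replicates, at 55.8, 58.6 and 64.7 TPM in control XY and 102, 108 and 105 TPM in Dfo XY, a log2 change of 0.81 ± 0.10 (adjusted p 0.000213). Nars, the asparaginyl enzyme, was highest in replicate 3 of both groups, at 62.4, 65.3 and 96.6 TPM in control XY and 111, 117 and 159 TPM in Dfo XY. Its lowest Dfo library still lay above its highest control library, and the log2 change was 0.78 ± 0.16 (adjusted p 0.00723).

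Gars (chromosome 6, 55038007 to 55079500, + strand) was the most abundant synthetase transcript in both cultured XY groups. It stood at 126, 134 and 154 TPM in control XY and at 222, 231 and 248 TPM in Dfo XY, a log2 change of 0.76 ± 0.11 (adjusted p 0.000736). Aars, the alanyl enzyme (chromosome 8, 111033144 to 111057664, + strand), stood at 95.0, 88.7 and 108 TPM in control XY and at 150, 150 and 175 TPM in Dfo XY, a log2 change of 0.70 ± 0.10 (adjusted p 0.000493). Neither gene overlapped between the groups. The annotated end of Aars shares 1326 bases with Exosc6, a subunit gene of the RNA exosome on the same strand, whose level was 23.0, 30.5 and 25.2 TPM in control XY and 13.9, 18.1 and 22.8 TPM in Dfo XY.

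Eprs, which joins the glutamyl and prolyl enzymes in 1 protein (chromosome 1, 185363044 to 185428360, + strand), stood at 105, 100.3 and 134 TPM in control XY and at 155, 155 and 178 TPM in Dfo XY. Its log2 change was 0.53 ± 0.12 (adjusted p 0.00935). Yars, the tyrosyl enzyme (chromosome 4, 129189760 to 129219607, + strand), stood at 58.7, 55.4 and 60.4 TPM in control XY and at 75.5, 79.5 and 79.4 TPM in Dfo XY. Its log2 change was 0.42 ± 0.10 (adjusted p 0.0143), the smallest among the 8. The annotated Yars gene shares 30 bases with C77080. Neither Eprs nor Yars overlapped between the groups, but the Yars call was lost without control XY replicate 2 (adjusted p 0.0629) or without Dfo XY replicate 2 (0.0557).

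When replicates 1 and 2 were averaged into 1 library, 5 cytosolic genes rose (Cars, Sars, Iars, Gars and Aars) and 0 fell, while 2.01% of all genes rose and 3.3% fell. Nars (adjusted p 0.0506), Eprs (0.0863) and Yars (0.126) then missed the threshold, with log2 changes of 0.77, 0.50 and 0.41. With both Xist-holding Dfo libraries left out, which leaves 1 Dfo library whose spread is taken from the other groups, 7 rose (all but Yars) and 0 fell, against 2.23% and 3.39% of all genes. With median-of-ratios scaling, which moved the median of all genes from -0.17 to -0.05, 11 cytosolic genes rose (the 8 with Lars, Mars and Tars) and 0 fell, against 9.42% of all genes higher and 6.35% lower. Only the upward part of the cytosolic pattern therefore held in all of these settings.

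The cytosolic genes that fell, Vars and Kars, were close to the threshold and are named here after their values were seen. Vars, the valyl enzyme (chromosome 17, 35000987 to 35016322, + strand), stood at 70.0, 66.5 and 70.7 TPM in control XY and at 52.2, 53.8 and 50.1 TPM in Dfo XY, a log2 change of -0.40 ± 0.11 (adjusted p 0.0229). Kars (chromosome 8, 111993443 to 112011323, - strand) stood at 104, 108 and 126 TPM in control XY and at 92.9, 84.9 and 93.1 TPM in Dfo XY, a log2 change of -0.31 ± 0.10 (adjusted p 0.0463). Neither overlapped between the groups. When each of the 12 libraries was left out in turn, the Vars call held in 6 fits and the Kars call in 4. Neither was called under median-of-ratios scaling, with replicates 1 and 2 averaged (adjusted p 0.132 and 0.163) or with the Xist-holding Dfo libraries left out (0.148 and 0.36).

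The 10 cytosolic genes that did not pass fell into those with a positive and those with a negative change. Tars, the threonyl enzyme, stood at 78.1, 86.1 and 108 TPM in control XY and at 106, 103 and 135 TPM in Dfo XY (log2 change 0.34 ± 0.15, adjusted p 0.149). Mars, the methionyl enzyme, stood at 56.3, 44.7 and 52.5 TPM and at 63.6, 67.3 and 63.1 TPM (0.34 ± 0.13, adjusted p 0.105), and its groups did not overlap. Both passed when the replicate number was taken as a block (adjusted p 0.0494 and 0.0392). Mars shares 68 bases with Ddit3 on the opposite strand, a stress gene that rose with Dfo (below), and no source used here says whether the counting used strand. Lars, the leucyl enzyme, stood at 49.6, 45.2 and 54.9 TPM and at 52.1, 50.8 and 71.5 TPM (0.20 ± 0.13, adjusted p 0.348). Only replicate 3 of Dfo XY lay above the control range.

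Rars, the arginyl enzyme, stood at 60.1, 69.6 and 74.2 TPM in control XY and at 70.4, 72.1 and 76.6 TPM in Dfo XY (0.11 ± 0.12, adjusted p 0.599). Farsa and Farsb encode the 2 kinds of subunit of the cytosolic phenylalanyl enzyme. Farsa stood at 58.2, 51.7 and 52.2 TPM and at 57.5, 60.9 and 51.2 TPM (0.06 ± 0.11, adjusted p 0.752). Farsb stood at 32.3, 33.5 and 32.5 TPM and at 23.2, 24.0 and 31.4 TPM (-0.33 ± 0.13, adjusted p 0.109), so the values of both subunits differed in sign and neither change passed the test. Wars, the tryptophanyl enzyme, stood at 42.8, 42.8 and 46.2 TPM and at 36.3, 44.6 and 46.4 TPM (-0.06 ± 0.16, adjusted p 0.857). Qars, the glutaminyl enzyme, stood at 103, 104 and 126 TPM and at 97.2, 104 and 114 TPM (-0.08 ± 0.12, adjusted p 0.712). For these 2 genes the groups overlapped, and the sign turned positive under median-of-ratios scaling (0.09 and 0.07).

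Hars, the histidyl enzyme, stood at 56.0, 57.1 and 63.6 TPM in control XY and at 45.2, 41.5 and 57.5 TPM in Dfo XY (-0.30 ± 0.15, adjusted p 0.203). Dars, the aspartyl enzyme, stood at 61.5, 57.4 and 74.0 TPM and at 46.6, 42.01 and 62.6 TPM (-0.36 ± 0.16, adjusted p 0.168). In both genes replicate 3 of Dfo XY lay within the control range while the other Dfo libraries lay below it. Without Dfo XY replicate 3, Dars (-0.52, adjusted p 0.0459) and Farsb (-0.46, adjusted p 0.0228) were called lower. Counted by overlap alone, 9 cytosolic genes had every Dfo library above every control library and 3 had every one below (Vars, Kars and Farsb), against 11.6% and 26.5% of all genes tested.

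Among the mitochondrial genes, Sars2, the seryl enzyme (chromosome 7, 28741992 to 28753871, + strand), stood at 17.7, 19.6 and 20.5 TPM in control XY and at 9.71, 10.3 and 10.9 TPM in Dfo XY. The log2 change was -0.84 ± 0.22 (adjusted p 0.0224). Vars2, the valyl enzyme (chromosome 17, 35655634 to 35667592, - strand), stood at 13.5, 12.04 and 14.1 TPM and at 9.80, 8.04 and 6.73 TPM, a log2 change of -0.64 ± 0.18 (adjusted p 0.0337). Neither overlapped between the groups. With Aars2, Tars2 and Rars2 they made up the 5 mitochondrial genes with every Dfo library below every control library, and 0 had every one above. That share of 31.2% below lay near the 26.5% of all genes tested, of which 11.6% had every Dfo library above. The calls did not hold in several settings: 0 mitochondrial genes were called with replicates 1 and 2 averaged or without any 1 of control XY replicates 1, 2 and 3 and Dfo XY replicate 2, and 1 was called without Dfo XY replicate 1. In the limma fits with 1 library left out that lost the Sars2 call, its log2 change was -0.90 to -0.80 (adjusted p 0.0513 to 0.0732). With the replicate number as a block, 1 rose (Lars2, 0.40, adjusted p 0.042) and 3 fell (Sars2, Vars2 and Tars2), where 5.75% of all genes rose and 13.1% fell. At an unadjusted p below 0.05, 0 mitochondrial genes were higher and 4 were lower, against 8.62% and 20.9% of all genes. The 14 others ranged in log2 change from -0.58 (Ears2, the glutamyl enzyme) to 0.40 (Lars2, the leucyl enzyme), and with Sars2 and Vars2 included 12 of the 16 changes were negative.

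Summed over the cytosolic genes, the level was 1384, 1369 and 1627 TPM in control XY (1460.0 ± 145, SD, n = 3) and 1778, 1804 and 2043 TPM in Dfo XY (1875 ± 146, n = 3). Every Dfo library was above every control library. Summed over the mitochondrial genes, it was 253, 241 and 345 TPM in control XY and 230, 217 and 320.0 TPM in Dfo XY, and the groups overlapped. Replicate 3 was the highest of its group in each of these sums. Lars2 supplied 76.8 TPM of the mitochondrial sum in control XY replicate 3 and 112 TPM in Dfo XY replicate 3, and at most 29.2 TPM in the other cultured XY libraries. Without this gene the sums were 227, 221 and 268 TPM in control XY and 201, 188 and 208 TPM in Dfo XY, so that replicate 3 was still the highest of each group and the groups no longer overlapped.

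The mean log2(TPM + 1) over cytosolic genes exceeded that over mitochondrial genes by 2.23 ± 0.10 in control XY (SD, n = 3) and by 2.75 ± 0.05 in Dfo XY (n = 3), a difference of 0.52 that is given without a test because the genes were taken as a set. In the other groups, with n = 2 each, the gap was 2.38 ± 0.14 in control XX, 1.94 ± 0.16 in E11.5 XY and 2.07 ± 0.04 in E11.5 XX. Leaving out Gars and Kars gave a difference of 0.52 and leaving out Lars2 gave 0.56. In 13 enzymes the cytosolic and mitochondrial genes share a name. The cytosolic gene had the higher change in 11 of these 13 pairs, with Lars and Wars as the exceptions, and the median gap was 0.49. The widest gap was that of the seryl enzymes, 1.66 between Sars and Sars2, followed by the alanyl enzymes with 1.23 and the cysteinyl enzymes with 1.18. The valyl pair moved in 1 direction, with Vars and Vars2 both lower. The histidyl pair, whose genes share 198 bases on opposite strands, had a gap of 0.06.

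**Figure D2:**
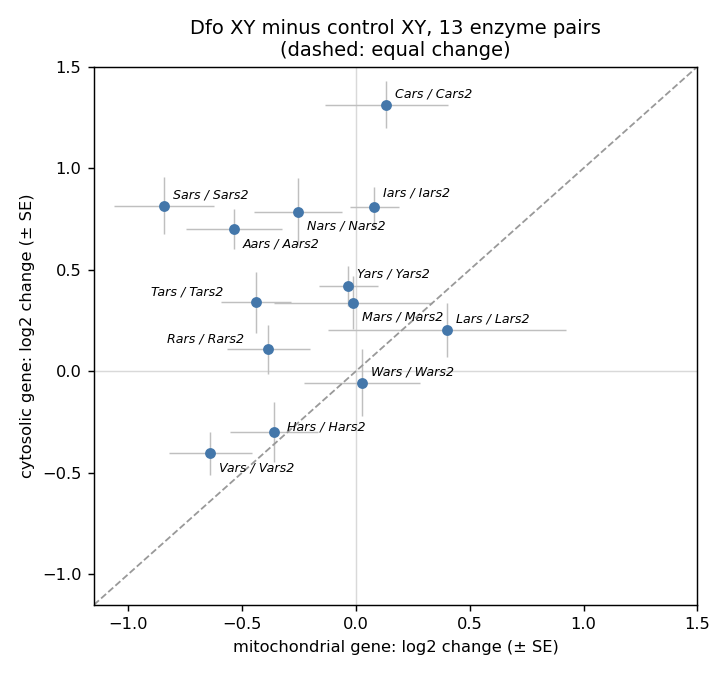
Log2 change with Dfo of the cytosolic gene (vertical) against that of the mitochondrial gene (horizontal) for 13 enzymes, with SE bars from limma; the dashed line marks equal change. Points above the line are the 11 pairs with the higher cytosolic change, and Lars / Lars2 and Wars / Wars2 lie below it.

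**Figure D3:**
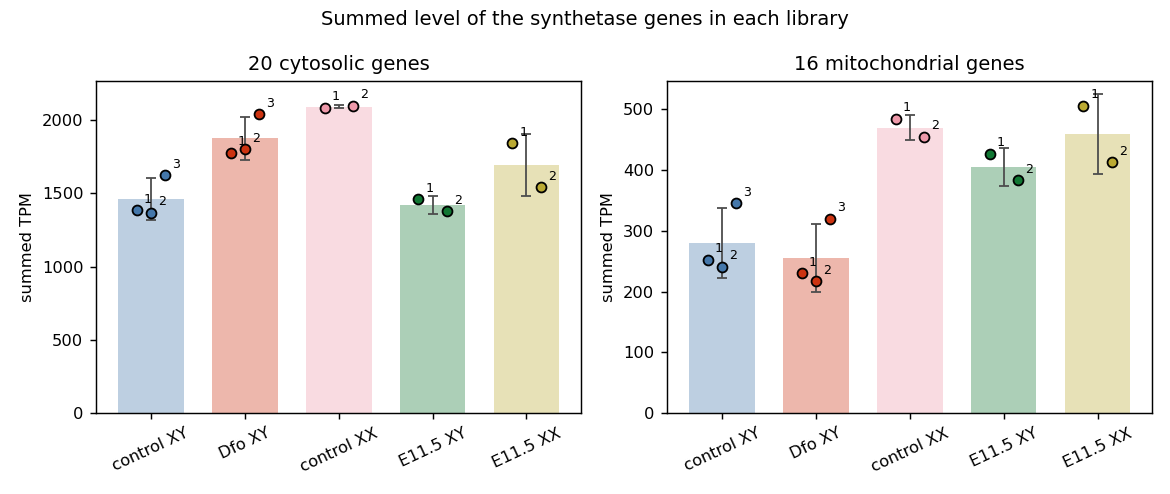
Summed TPM of the 20 cytosolic (left) and 16 mitochondrial (right) synthetase genes in each library; bars are group means, error bars the SD, points libraries with their replicate number. Cytosolic sums of the Dfo XY libraries (1778 to 2043) lie above those of control XY (1369 to 1627) and below those of control XX (2086 and 2099), and the mitochondrial sums of the cultured XY groups overlap.

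By structural class, 4 of 10 cytosolic class I genes rose and 1 fell, and the same numbers of the 10 cytosolic class II genes did. The shares over all genes tested were 4.98% higher and 10.5% lower. Among the mitochondrial genes, 4 of 9 class I changes and 0 of 7 class II changes were positive, with medians of -0.01 and -0.36, and 1 gene of each class fell. Of the 8 genes whose enzymes sit in the multisynthetase complex, 2 rose (Eprs and Iars) and 1 fell (Kars), with a median log2 change of 0.16. Of the 12 cytosolic genes outside the complex, 6 rose and 1 fell, with a median of 0.38. Whether genes inside and outside the complex differ was not tested. None of the 3 scaffold genes was called by limma, also at an unadjusted p below 0.05: Aimp1 changed by -0.19 (adjusted p 0.53), Aimp2 by -0.03 (0.924) and Eef1e1 by -0.15 (0.719).

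Other genes of tRNA charging were lower or not called. Of 11 relatives and helpers of the synthetases, 0 rose and 3 fell, against 4.98% and 10.5% of all genes tested. At an unadjusted p below 0.05 there were 1 higher and 6 lower, against 8.62% and 20.9% of all genes. Qrsl1, the catalytic subunit of the enzyme that makes mitochondrial glutaminyl-tRNA by amidation, stood at 12.9, 13.5 and 15.8 TPM in control XY and at 6.48, 8.36 and 5.16 TPM in Dfo XY (-0.99 ± 0.18, adjusted p 0.00328). Its partner subunits changed by -0.57 (Gatc, adjusted p 0.0465) and -0.52 (Gatb, adjusted p 0.0614). Dtd2, which removes wrongly attached amino acids, fell by 0.87 on the log2 scale (adjusted p 0.0186). Mtfmt, which formylates the mitochondrial initiator tRNA, changed by -0.36 (adjusted p 0.27). Tarsl2, a second cytosolic threonyl enzyme, stood at 6.04, 8.73 and 7.47 TPM in control XY and at 11.7, 13.3 and 11.54 TPM in Dfo XY (0.66, adjusted p 0.0624), so that its groups did not overlap.

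Genes for factors that act after charging were mostly not called. None of 6 cytosolic elongation factor genes was called by limma, with 0 higher and 3 lower at an unadjusted p below 0.05, and their median log2 change was -0.21. Of 9 mitochondrial translation factor genes, 0 rose and 1 fell, the initiation factor Mtif2 (-0.56, adjusted p 0.0288), with a median of -0.24. At an unadjusted p below 0.05, 0 of these 9 were higher and 4 were lower. Of all genes tested, 4.98% rose and 10.5% fell, and 8.62% were higher and 20.9% lower at the unadjusted threshold. Both medians lie near that of all genes tested, -0.17.

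Genes of the amino acid response, a list of known ATF4 targets with Atf4 itself, rose in larger number. Of these 20 genes, 14 rose and 0 fell, against 4.98% and 10.5% of all genes tested, and the median log2 change was 1.11. The list and its direction were known from earlier results of these data, so it is no independent support. Atf4 stood at 226, 214 and 214 TPM in control XY and at 625, 686 and 525 TPM in Dfo XY, a log2 change of 1.48 ± 0.10 (adjusted p 2.06e-06). Asns, asparagine synthetase, stood at 121, 107 and 116 TPM and at 149, 167 and 153 TPM (0.44 ± 0.12, adjusted p 0.0236). The smallest adjusted p-values were those of Atf3 (3.04), Atf4, Trib3 (3.36) and Ddit3 (2.85), stress-response genes, with log2 changes in brackets. Ddit3, whose gene overlaps Mars, stood at 30.5, 31.8 and 38.5 TPM in control XY and at 236, 271 and 238 TPM in Dfo XY. Cars, with 1.31, was the only synthetase gene whose change exceeded the median of this list.

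Of 6 genes for eIF2 kinases and the subunits that direct eIF2 dephosphorylation, 1 rose, 1 fell and 4 were not called by limma. Of all genes tested, 4.98% rose and 10.5% fell. At an unadjusted p below 0.05, 3 of the 6 were higher and 1 was lower, against 8.62% and 20.9% of all genes. Ppp1r15a, a stress-induced phosphatase subunit, rose by 1.80 ± 0.11 (adjusted p 5.46e-07). Eif2ak1, the heme-regulated kinase, fell by 0.35 on the log2 scale (adjusted p 0.0318). It stood at 35.6, 39.0 and 41.6 TPM in control XY and at 32.5, 29.7 and 28.5 TPM in Dfo XY. Eif2ak4, the kinase that senses uncharged tRNA, was not called (0.21, adjusted p 0.369).

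Markers of the cells in the sample moved in the same comparison, in which 4.98% of all genes tested rose and 10.5% fell. The summed level of 6 NR5A1 somatic markers (Nr5a1, Wt1, Gata4, Lhx9, Emx2 and Cbx2) was 648 to 794 TPM in control XY and 492 to 558 TPM in Dfo XY, and 4 of the 6 fell. All 6 were above 0 in every group. Of 5 mesonephric mesenchyme markers 3 fell (615 to 701 against 441 to 536 TPM), of 5 neural markers 2 fell (48.9 to 131 against 24.0 to 42.7 TPM), of 5 mesonephric epithelium markers 1 fell (52.8 to 61.6 against 31.2 to 53.3 TPM) and of 5 endothelial markers 1 rose (54.1 to 98.0 against 82.7 to 135 TPM). None of 6 germ cell (63.2 to 77.2 against 58.7 to 75.3 TPM), 5 erythroid (131 to 1098 against 365 to 1519 TPM) and 5 macrophage markers (36.8 to 69.8 against 64.9 to 105 TPM) was called by limma. At an unadjusted p below 0.05, 1 germ cell marker was lower and 1 erythroid marker higher, where 20.9% of all genes were lower and 8.62% higher. The beta-globin symbol Hbb-bs was listed at 0 in all cultured libraries. The part of these markers in the synthetase changes was not tested. In bulk RNA, fewer cells of a type and less RNA per cell cannot be told apart.

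**Figure D4:**
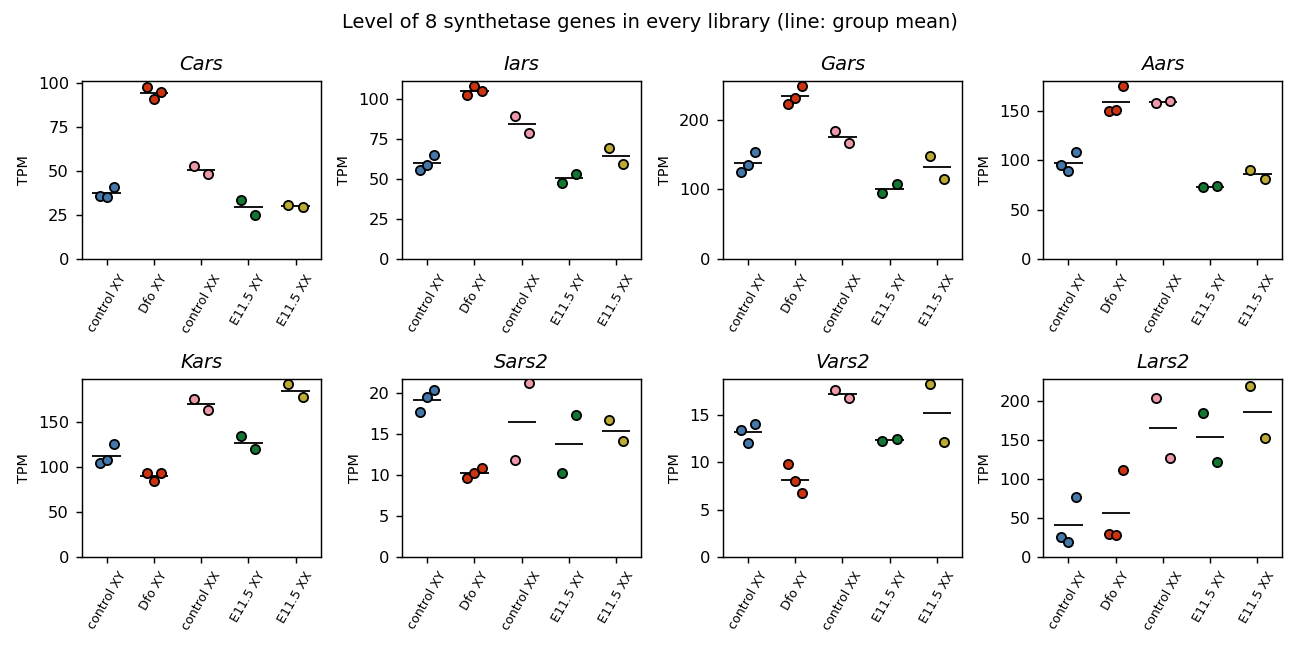
TPM of 8 synthetase genes in every library of the 5 groups, with a line at the group mean. Cars, Iars and Gars are highest in the Dfo XY libraries, Kars and Vars2 are lowest there, and Lars2 spreads most, with replicate 3 as the high point of both cultured XY groups.

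Between sexes in culture, control XY libraries had lower levels than control XX libraries for 18 of the 36 genes, 15 cytosolic and 3 mitochondrial, and 0 were higher. Of all genes tested, 22.2% were called lower. The median log2 change was -0.52 over the cytosolic genes, -0.32 over the mitochondrial genes and -0.22 over all genes. In 19 of the 20 cytosolic genes, and in 7 of the 16 mitochondrial genes, every XY library lay below both XX libraries, against 41.4% of all genes. This difference depended on the scaling. With median-of-ratios scaling, which moved the median of all genes to 0.07, only Aars was called lower (-0.38, adjusted p 0.0191), against 3.09% of all genes, and with quantile normalization no member was. The medians were then -0.19 over the cytosolic genes, where 19 of 20 changes remained negative, and -0.01 over the mitochondrial genes, where 8 of 16 did. With Rpph1 left out, 7 members were called lower, against 9.38% of all genes. The comparison of control XY with XX, that with Dfo XY and that with E11.5 XY use the same 3 control XY libraries.

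The 6 called members with the largest differences were Lars2, Yars2, Mars, Aars, Eprs and Hars. Lars2 stood at 26.2, 19.9 and 76.8 TPM in control XY and at 204 and 127 TPM in control XX (-2.19 ± 0.58, adjusted p 0.0171), and its call was lost without control XX replicate 1 (adjusted p 0.123), control XY replicate 1 (0.0598) or control XY replicate 2 (0.0642). Yars2, the mitochondrial tyrosyl enzyme, stood at 19.7, 19.2 and 23.8 TPM in XY and at 34.6 and 36.2 TPM in XX (-0.74 ± 0.14, adjusted p 0.00409). Mars stood at 91.5 and 77.6 TPM in XX, against at most 56.3 TPM in control XY (-0.72 ± 0.15, adjusted p 0.00502). For these 3 genes no XY library reached the lower XX library. Aars stood at 157 and 160 TPM in XX (-0.70 ± 0.11, adjusted p 0.0015), Eprs at 188 and 167 TPM (-0.66 ± 0.13, adjusted p 0.0045) and Hars at 91.0 and 95.1 TPM (-0.65 ± 0.17, adjusted p 0.0142), each above all 3 control XY libraries given earlier. The Hars call was lost without control XY replicate 1 (adjusted p 0.0504), control XX replicate 1 (0.0628) or control XX replicate 2 (0.0786), and the Mars call without control XX replicate 1 (0.0566). The NR5A1 somatic markers also summed to less in control XY (648 to 794 TPM) than in control XX (1278 and 1350 TPM), with 5 of 6 called lower, and the erythroid markers to more (131 to 1098 against 24.9 and 27.9 TPM), with 2 of 5 called higher. Of the mesonephric mesenchyme markers 4 of 5 were lower (615 to 701 against 953 and 1006 TPM). Of the neural markers 4 of 5 were higher (48.9 to 131 against 23.1 and 27.9 TPM), of the mesonephric epithelium markers 2 of 5 (52.8 to 61.6 against 33.3 and 57.3 TPM) and of the macrophage markers 1 of 5 (36.8 to 69.8 against 30.3 and 41.0 TPM). In this comparison 22.2% of the 16133 genes tested were called lower and 479 were called higher. The part of all these markers in the synthetase difference was not tested.

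At E11.5, 1 of the 36 genes differed between the sexes by limma, and 1.2% of all genes were called lower in XY. Kars stood at 135 and 120 TPM in E11.5 XY and at 193 and 177 TPM in E11.5 XX, a log2 difference of -0.54 ± 0.12 (adjusted p 0.0375). At an unadjusted p below 0.05, 8 members were lower in XY and 0 higher, against 9.69% and 9.87% of all genes. With each library left out in turn, the Kars call held in 2 of 12 fits, in which replicate 3 of control XY or of Dfo XY was missing. In the other 10 the adjusted p lay between 0.0514 and 0.201. Nearest to the threshold among those not called was Iars2, the mitochondrial isoleucyl enzyme, at 40.9 and 40.3 TPM in XY and 59.7 and 56.3 TPM in XX (-0.50 ± 0.13, adjusted p 0.0611). Both XY libraries lay below both XX libraries in 10 of the 20 cytosolic genes and in 1 of the 16 mitochondrial genes (Iars2), against 22.1% of all genes. They lay above both in 1 cytosolic gene (Farsa) and in 3 mitochondrial genes (Cars2, Hars2 and Nars2), against 22.4% of all genes, and none of these 4 passed the test.

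Whether the XY-XX difference itself changed between culture and E11.5 was tested as an interaction, which was called for 0 of the 36 genes by limma, against 1.33% of all genes. At an unadjusted p below 0.05 there were 0 members higher and 5 lower, against 3.37% and 17.4% of all genes. The smallest adjusted p was that of Yars2 (-0.82 ± 0.21, adjusted p 0.0718), which passed without control XY replicate 3 (-0.92, adjusted p 0.0379). With the replicate number as a block, 6 members were called, all lower (Lars2, Yars2, Nars, Tars, Aars and Eprs), against 10.9% of all genes called in either direction. That block also tied XX and E11.5 libraries to cultured XY ones by number, a pairing that was not checked.

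Control XY gonads in culture and E11.5 XY gonads differed in 0 of the 36 genes by limma, against 5.66% of all genes called in either direction. At an unadjusted p below 0.05, 5 members were higher in culture and 3 were lower, against 8.21% and 15.3% of all genes. Aars (0.40 ± 0.11, adjusted p 0.0533), Gars (0.44 ± 0.12, adjusted p 0.0575), Yars (0.38 ± 0.11, adjusted p 0.0639) and Lars2 (-2.10 ± 0.58, adjusted p 0.0548) came nearest to the threshold. The first 3 passed with median-of-ratios scaling, with adjusted p-values of 0.00393, 0.00686 and 0.0188. With the replicate number as a block, 5 members were called, Aars, Gars and Yars higher and Lars2 and Nars2 lower, against 16.1% of all genes. Whether E11.5 libraries pair with cultured ones by number was not checked. Culture and the way of collection differ together between these groups and cannot be told apart.

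In XX gonads, 4 members were higher in culture than at E11.5 and 0 were lower. Of all 16133 genes tested, 7.36% were called higher and 276 were called lower. Aars stood at 157 and 160 TPM in culture and at 90.4 and 80.8 TPM at E11.5 (0.88 ± 0.12, adjusted p 0.000994). Cars stood at 53.0 and 48.2 TPM and at 30.9 and 29.8 TPM (0.72 ± 0.14, adjusted p 0.00856). Mars stood at 91.5 and 77.6 TPM and at 60.3 and 46.6 TPM (0.66 ± 0.16, adjusted p 0.0241), and Yars at 77.3 and 70.5 TPM and at 58.2 and 48.7 TPM (0.46 ± 0.12, adjusted p 0.0337). None of the 4 overlapped between the groups, and all 4 are cytosolic. In 13 of the 20 cytosolic and 3 of the 16 mitochondrial genes both cultured libraries lay above both E11.5 libraries, against 34.7% of all genes. With median-of-ratios scaling 2 members were called, against 2.93% of all genes higher, and without control XX replicate 1 or without E11.5 XX replicate 2 only 1 was. Among the 20 amino acid response genes, 13 were higher and 1 lower in XX culture than at E11.5, and 11 were higher and 0 lower in XY culture. Asns was higher by 1.11 in XX (adjusted p 0.000712) and by 1.02 in XY (adjusted p 0.000889). Atf4 was not called in either, with log2 changes of -0.16 and 0.31. In XX culture against E11.5, all 5 endothelial markers were lower (85.3 and 91.8 against 213 and 269 TPM). The erythroid markers summed to 24.9 and 27.9 against 488 and 744 TPM, with 1 of 5 called lower. Of the NR5A1 somatic markers 1 of 6 was higher (1278 and 1350 against 988 and 1179 TPM), of the macrophage markers 1 of 5 was higher (30.3 and 41.0 against 14.9 and 22.1 TPM) and of the germ cell markers 1 of 6 was lower (56.6 and 60.8 against 52.0 and 61.2 TPM). In XY culture against E11.5, 3 of 5 endothelial markers were lower (54.1 to 98.0 against 156 and 169 TPM) and 1 of 5 neural markers was higher (48.9 to 131 against 22.0 and 27.1 TPM). In the same comparison 1 of 5 macrophage markers (36.8 to 69.8 against 14.4 and 23.1 TPM) and 1 of 6 germ cell markers (63.2 to 77.2 against 33.7 and 69.6 TPM) were higher, and 1 of 5 mesonephric mesenchyme markers was lower (615 to 701 against 775 and 877 TPM). Over all 16133 genes tested, 422 were called higher and 491 lower in XY culture than at E11.5. The part of these markers in the synthetase differences was not tested.

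**Figure D5:**
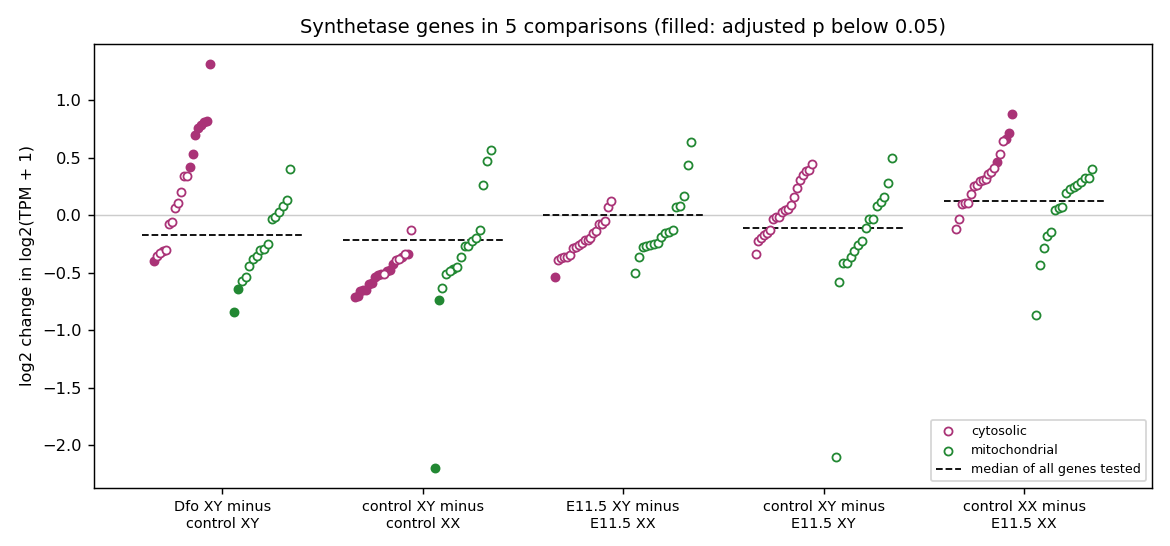
Log2 change of each cytosolic and mitochondrial synthetase gene in 5 comparisons of groups, with filled points at an adjusted p below 0.05 and a dashed line at the median of all genes tested. In the Dfo comparison 8 called points lie above 0 (all cytosolic) and 4 below (Vars, Kars, Sars2 and Vars2); the called points lie above 0 in XX culture against E11.5 (4 cytosolic), and below 0 in control XY against XX (18 genes) and at E11.5 (Kars).

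Levels ranged widely within each compartment. In control XY the cytosolic group means ran from 32.8 TPM (Farsb) to 138 TPM (Gars) with a median of 66.1 TPM, and the mitochondrial ones from 3.65 TPM (Ears2) to 49.5 TPM (Iars2) with a median of 15.2 TPM. In Dfo XY the cytosolic means ran from 26.2 TPM (Farsb) to 233 TPM (Gars), with a median of 84.2 TPM, and the mitochondrial ones from 2.12 TPM (Ears2) to 56.6 TPM (Lars2), with a median of 9.89 TPM. At E11.5 the lowest cytosolic gene in both sexes was Cars, at 29.4 TPM in XY and 30.4 TPM in XX, and the highest was Kars, at 127 and 185 TPM. Cars was thus the least abundant cytosolic member at E11.5 and the one with the largest change under Dfo.

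Lars2 varied most among the 36 genes, with an SD of log2(TPM + 1) of 1.002 in control XY and 1.10 in Dfo XY, against medians over the members of 0.15 and 0.16. It stood at 26.2, 19.9 and 76.8 TPM in control XY, at 29.2, 28.8 and 112 TPM in Dfo XY, at 204 and 127 TPM in control XX, at 186 and 122 TPM in E11.5 XY and at 219 and 153 TPM in E11.5 XX. Replicates 1 and 2 of the cultured XY groups were the low ones, and replicate 3 lay between them and the other groups. Across the members, replicate 3 was the highest of its group in 17 of 20 cytosolic and 13 of 16 mitochondrial genes in control XY, and in 14 of 20 and 8 of 16 in Dfo XY.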

How the data were processed

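The 12 libraries are RNA-seq of NR5A1(+) cells in 5 groups. The deposited values are TPM per gene symbol, which the authors made, per the submitters' processing notes, with STAR 2.7.10b, RSEM, R 4.1.2 and mm10. The RSEM version, annotation and strand setting are not stated. A TPM value is relative to each library's total, so a gene that takes a larger share lowers the others, and because it keeps no depth, neither confidence intervals of counts nor detection limits are given.

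Groups came from the sample titles. A single limma fit (version 3.58.1, R 4.3.3) took all 12 libraries, with 5 group means and a variance trend, on the log2 scale after adding 1 to the deposited TPM. Genes with at least 1 TPM in at least 2 libraries were kept (16133), and each comparison's p-values received a Benjamini-Hochberg adjustment over them. Fits were checked on simulated data with noise drawn independently for each library, so the check does not cover replicates that are not independent. Gene positions are from GENCODE M21 on mm10, where all 36 genes were found, and promoter windows are from RefSeq on GRCm38.p6, with 1 match shown per gene, the nearest to the start. A further sequence is not reported here.

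The members, the gene lists and the tests were chosen with earlier results of these data known. Values per library are given, in the Dfo comparison, for the 8 called cytosolic genes with the largest change, for called mitochondrial genes and for each cytosolic gene that was not called. Elsewhere they are given for up to 6 called members by size of change. From each related list up to 4 called genes by smallest adjusted p are named, with Atf4, Asns, Aimp1, Aimp2, Eef1e1, Qrsl1, Gatb, Gatc and Mtfmt in any case.

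The main fit used no pairing. An alternative fit took the replicate number as a block in all 12 libraries. Pairing by number was checked only between control XY and Dfo XY, and not for the XX or E11.5 libraries. There, the deviations of same-numbered libraries from their group means correlated across genes (r of 0.21, 0.12 and 0.34, each above 0.1). Crossed numbers gave r of 0.14 (control 1, Dfo 2) and 0.18 (control 2, Dfo 1), so the values do not match replicates 1 and 2 by number. Alternatives were other pseudocounts, filters, scalings and variance models, a fit of only the groups compared, the replicate block, replicates 1 and 2 averaged, and libraries left out.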

Additional observations from a re-analysis of the deposited data

How the results depend on the processing

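The number of called members depended on the scaling and on single libraries in most comparisons. In Dfo XY against control XY, the cytosolic count of 10 became 5 with replicates 1 and 2 averaged, and lay between 7 and 10 with 1 library left out. The mitochondrial count of 2 became 1 with median-of-ratios scaling, quantile normalization or removal of the 50 most abundant genes, and 0 with replicates 1 and 2 averaged or with both Xist-holding Dfo libraries left out. It lay between 0 and 2 with 1 library left out. Taking the replicate number as a block (pairing) gave 4 mitochondrial and 12 cytosolic calls, 5 calls for control XY against E11.5 XY and 6 for the difference of the sex differences. It turned no called member named by the rule to not called. In control XY against XX, 3585 of all genes tested were called lower in the main fit. The number was 499 with median-of-ratios scaling, 323 with quantile normalization, 762 with the 50 most abundant genes left out and 1513 with Rpph1 left out. Under these settings, in the same order, the count of 18 members became 1, 0, 2 and 7, and it became 6 with replicates 1 and 2 averaged. With 1 library left out it lay between 7 and 20, with 7 and 10 without control XY replicates 1 and 2 and 8 without either control XX library. At E11.5 the count of 1 became 0 without the variance trend, with only the groups compared, with replicates 1 and 2 averaged and with the Xist-holding Dfo libraries left out, and lay between 0 and 1 with 1 library left out. In control XY against E11.5 XY, the count of 0 became 1 at a minimum of 5 TPM, 3 with median-of-ratios scaling, 4 with quantile normalization, with the 50 most abundant genes left out or with Rpph1 left out, and 1 with the Xist-holding Dfo libraries left out. It lay between 0 and 2 with 1 library left out, where the 2 came without Dfo XY replicate 3. In XX culture against E11.5, the count of 4 became 2 with median-of-ratios scaling or without the variance trend and 1 with quantile normalization, and lay between 1 and 6 with 1 library left out. The difference of the sex differences had 0 to 1 calls with 1 library left out. Over all genes tested, those called higher in control XY against E11.5 XY numbered 422 in the main fit. They numbered 615 with median-of-ratios scaling, 737 with quantile normalization, 685 with the 50 most abundant genes left out and 626 with Rpph1 left out. In XX culture against E11.5, they went from 1187 to 473 with median-of-ratios scaling and 426 with quantile normalization. The cytosolic minus mitochondrial gap of 0.52 became 0.44 with a pseudocount of 5 and 0.40 with quantile normalization, and lay between 0.47 and 0.57 with 1 library left out. Among the cytosolic genes in the Dfo comparison, changes of 3 that were not called turned sign. Of the 16 mitochondrial changes, 4 were positive in the main fit. There were 6 with median-of-ratios scaling, with quantile normalization, with the 50 most abundant genes left out or with Rpph1 left out. Qars became 0.074 with median-of-ratios scaling, 0.019 with the 50 most abundant genes left out and 0.041 with the Xist-holding Dfo libraries left out, and lay between -0.14 and 0.017 with 1 library left out. Wars became 0.093, 0.039 and 0.079 under these settings in the same order and 0.011 with Rpph1 left out, and lay between -0.12 and 0.051 with 1 library left out. Farsa became -0.075 with the Xist-holding Dfo libraries left out. The causes were not tested. Cars, Sars, Iars, Gars and Aars were called higher with Dfo in all 25 alternatives. Leaving out Lars2, or Gars and Kars, was chosen after seeing the data.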
